A study of Mus musculus with 32 samples.

Results

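The nuclear genes that encode the subunits of the 5 oxidative phosphorylation complexes, together with the assembly factors and tissue isoforms whose symbols share their prefixes, were followed across germ cells of fetal mice. A probe was taken as a member when the array annotation gave it exactly 1 gene symbol and that symbol began with Ndufa, Ndufb, Ndufc, Ndufs, Ndufv, Sdh, Uqcr, Cox4, Cox5, Cox6, Cox7, Cox8 or Atp5, and pseudogene symbols were left out. This gave 93 genes out of 19938 named on the array, measured by 119 of its 35556 probes, of which 21789 named 1 gene. A further 6 probes carried a fitting symbol but named several genes or a pseudogene, and these were left out: they named Cox7c with Gm12338, Ndufs5 with Ndufs5-ps, and Ndufb4 with Ndufb4b. By complex, the members comprised 46 probes for complex I, 9 for complex II, 11 for complex III, 23 for complex IV and 30 for complex V. By role, 99 probes for 74 genes were for subunits, 12 probes for 11 genes for assembly factors, and 8 probes for 8 genes for isoforms of complex IV subunits known from particular tissues.

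Oxidative phosphorylation takes place at the inner mitochondrial membrane. Complex I (NADH dehydrogenase) and complex II (succinate dehydrogenase) feed electrons to ubiquinone, complex III (cytochrome bc1) hands them to cytochrome c, complex IV (cytochrome c oxidase) reduces oxygen, and complex V (ATP synthase) uses the proton gradient that is built up to make ATP. Most subunits are encoded in the nucleus and a few in the mitochondrial genome. Oocytes are known for a large store of mitochondria, which they pass on to the embryo, and several complex IV subunits exist in isoforms that are used in muscle, lung or testis.

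The samples were 32 arrays of RNA from EGFP-positive germ cells, sorted by flow cytometry from fetuses at 17.5 days post coitum (dpc). Every group carried the OG2 transgene, in which a promoter of Oct4 (Pou5f1) drives EGFP, so the sort itself depended on that promoter. The question was whether endocrine disruptors (EDs) given to the mother change transcription in fetal germ cells, in oocytes and in prospermatogonia, and whether any change recurs a generation later. In the first generation (G1R, genotype FVBxOG2), G0 dams were gavaged from 12.5 dpc with oil, with BPA (bisphenol A, 0.2 mg/kg/day), with DEHP (di-(2-ethylhexyl) phthalate, 750 mg/kg/day) or with VZ (vinclozolin, 100 mg/kg/day). Female and male germ cells made up 3 arrays each for every treatment, except DEHP females with 2 arrays. In the second generation (G2R, genotype OG2xFVB) male germ cells of G2 fetuses were measured, with 3 arrays each for Oil, DEHP and VZ in the G0 dam. By the methods of the study these fetuses came from adult G1 males, exposed in utero, that were bred to OG2 females, so descent from the treated dam runs through the father. The labels instead give G1 as the generation of the mother of these fetuses. The labels do not say whether the arrays of a group came from separate animals or litters, so p-values measure only the spread between these samples.

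The labels name the cells as primordial germ cells, and of 11 germ cell marker probes 4 were higher in oil females, 2 were lower and 5 did not pass. Beside this, 28.7% of all probes were higher in oil females and 25.6% were lower. Ddx4 read between 11.53 and 11.86 in the 11 female arrays and between 11.52 and 11.83 in the 21 male arrays, and Dazl between 12.55 and 12.9 and between 12.3 and 12.57. All values are log2 signals, on which the arrays reached from 2.59 to 14.82. Pou5f1 read between 7.12 and 8.76 in females and between 10.03 and 11.33 in males. Dnd1 was also lower in oil females, by -1.46, while Dppa3, a maternal factor of the oocyte, was higher by 4.15 and 3.70 on its 2 probes, and Nanos3 differed by -0.076, not called. The mean of the germ cell list was 10.19 to 10.53 in female arrays. It was 9.75 to 10.03 in G1R male arrays and 9.85 to 10.16 in G2R male arrays, so it did not overlap between the sexes. This mean counts Dppa3 with 2 probes, and the others higher in oil females differed less, Tdrd1 by 0.69 and Dazl by 0.38. Pou5f1 was lower by -3.18. The list mean is therefore not a measure of germ cell content, and its part in the members' differences was not tested. Lists of markers of other gonadal cells had more probes lower than higher in females. The endothelial list averaged 6.46 to 6.69 in female arrays, 7.78 to 7.96 in G1R male arrays and 7.64 to 7.94 in G2R male arrays. Which cells the signal of these lists came from, germ cells included, was not tested. Besides this, 3 male arrays, the first and the second G1R BPA male and the second G2R DEHP male, stood apart in fetal Leydig cell markers, with list means of 8.69 to 8.91 against 6.93 to 8.03 in the 18 other male arrays. Named members, unadjusted counts against oil and counts between generations that rest on these 3 arrays are given with and without them. Counts between the sexes in BPA, counts over all treatments, interaction counts, medians and levels per array are given only with them. In bulk RNA of this kind, fewer cells of a type and less RNA per cell cannot be told apart.

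Most members had a higher normalized signal in oocytes than in prospermatogonia, which is not a measure of transcript per cell. In the Oil groups, 71 of 119 member probes (59.7%) were higher in females at an adjusted p under 0.05, against 28.7% of all probes, and 16 (13.4%) were lower, against 25.6% of all probes. The median member differed by 0.52 on the log2 scale, beside 0.049 for all probes. The 3 female and the 3 male arrays did not overlap for 91 members (76.5%), beside 59.8% of all probes. Each call comes from limma, fitted to all arrays at once, with Benjamini-Hochberg adjustment over all probes. No detection call was used. Ndufa1, Ndufa4, Cox6b2 and Cox7a1 read near or below the array medians (7.29 to 7.5) in the sex where they were lower. Their signal there is not shown to be above background, and no fold is given for them. The same limit holds for other genes that read this low, such as Ndufaf7 (mean 6.76 in oil males) and Sdhaf1 (mean 7.31 in oil males). The shift ran through every complex. Among subunit probes, the median female minus male difference in oil was 0.50 for complex I (25 higher and 1 lower of 39), 0.65 for complex II (3 and 0 of 4), 0.99 for complex III (6 and 1 of 11), 0.54 for complex IV (9 and 4 of 15) and 0.53 for complex V (19 and 3 of 30). All 5 medians remained positive when the arrays were normalized again by cyclic loess (0.30 to 0.74) or by median centring (0.65 to 1.14). The isoforms of complex IV differed from this, with 2 higher and 5 lower of 8 and a median of -0.31.

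**Figure D1:**
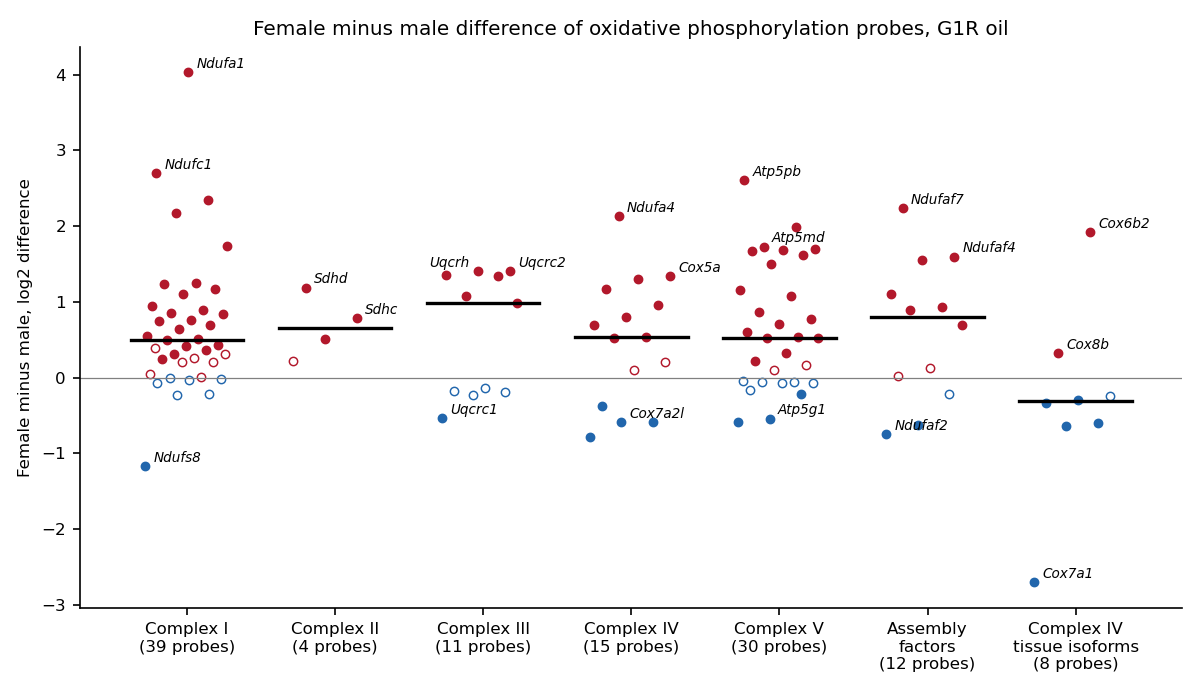
Female minus male log2 difference in the Oil groups for each member probe (vertical axis), in columns by complex and role. Red points are above 0 and blue points below, filled points passed the test at an adjusted p under 0.05, hollow points did not, and black lines are medians. Subunit medians lie between 0.50 and 0.99, and that of the complex IV isoforms lies at -0.31.

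To show what lies upstream of the members that the sex comparison turns on, 5 promoters are printed as the 250 bases before the RefSeq transcript start, on the gene's own strand, in build GRCm38.p6. Ndufa1 and Atp5pb were among the members highest in females, Sdhd had the largest difference of the 4 complex II subunits, and Cox7a1 and Cox7a2 are isoforms of the same subunit that differed in opposite directions. Capitals mark a match to the core TGCGCA of nuclear respiratory factor 1 (NRF1), which is its own reverse complement, or to the core CCGGAAG of ETS factors such as NRF2 (GABP), read on both strands, so that its other form is CTTCCGG. Matches of the NRF1 core and the ETS core cannot overlap each other. The windows lie at chrX:37191239-37191488 (minus strand) for Ndufa1, chr9:50603850-50604099 (minus strand) for Sdhd, chr7:30183921-30184170 (plus strand) for Cox7a1, chr9:79759854-79760103 (minus strand) for Cox7a2 and chr3:105959264-105959513 (minus strand) for Atp5pb.
Ndufa1 promoter: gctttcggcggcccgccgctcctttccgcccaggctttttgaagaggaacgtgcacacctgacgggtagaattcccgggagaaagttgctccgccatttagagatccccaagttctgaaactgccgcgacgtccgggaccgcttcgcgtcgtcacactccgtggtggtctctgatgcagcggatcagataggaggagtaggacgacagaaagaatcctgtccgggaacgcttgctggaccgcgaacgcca
Sdhd promoter: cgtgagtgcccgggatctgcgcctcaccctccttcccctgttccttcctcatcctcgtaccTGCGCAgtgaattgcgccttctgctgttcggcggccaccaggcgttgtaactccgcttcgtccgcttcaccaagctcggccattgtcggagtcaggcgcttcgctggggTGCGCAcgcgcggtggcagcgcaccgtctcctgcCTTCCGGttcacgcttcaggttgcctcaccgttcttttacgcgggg
Cox7a1 promoter: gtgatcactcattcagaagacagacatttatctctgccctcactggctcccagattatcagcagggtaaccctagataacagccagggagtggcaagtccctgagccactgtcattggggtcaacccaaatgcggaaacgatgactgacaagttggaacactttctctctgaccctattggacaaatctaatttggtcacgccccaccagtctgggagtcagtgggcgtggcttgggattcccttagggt
Cox7a2 promoter: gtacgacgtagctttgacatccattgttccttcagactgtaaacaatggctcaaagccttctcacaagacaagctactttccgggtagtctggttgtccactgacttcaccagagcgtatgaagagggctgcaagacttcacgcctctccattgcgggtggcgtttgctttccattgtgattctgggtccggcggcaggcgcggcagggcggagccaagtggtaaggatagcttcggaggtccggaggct
Atp5pb promoter: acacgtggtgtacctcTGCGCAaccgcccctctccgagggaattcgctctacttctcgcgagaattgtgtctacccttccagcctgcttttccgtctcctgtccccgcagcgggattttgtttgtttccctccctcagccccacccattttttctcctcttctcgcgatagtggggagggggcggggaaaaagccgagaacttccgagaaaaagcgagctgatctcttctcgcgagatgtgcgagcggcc
Sdhd held 2 matches to the NRF1 core and 1 to the ETS core, Atp5pb held 1 to the NRF1 core, and Ndufa1, Cox7a1 and Cox7a2 held none of these letters in the printed window. G and C made up 51.2% of the Cox7a1 window with 4 CpG dinucleotides, 54.8% of the Cox7a2 window with 14, and 64.4% of the Sdhd window with 27. RefSeq gave a window of 300 bases, reaching 50 past the start, for 77 of the 93 member genes. Either core was found in 36 of these 77 (46.8%), and in 17.1% of all 27025 genes with such a window. The NRF1 core alone was in 26% of member windows and 8.79% of all, and the ETS core in 27.3% and 9.93%. Median G and C content was 58.5% in members and 52.8% in all, so the windows also differ in base composition. Members with a probe higher in oil females held either core in 26 of 49 windows (53.1%), those with a lower probe in 3 of 10 (30%) and those with no call in 7 of 18 (38.9%). A match to such short letters is not a binding site.

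Complex I held the member with the largest sex difference. Ndufa1, a small accessory subunit encoded on the X chromosome and needed for assembly of the complex, read 10.39, 10.11 and 10.18 in the 3 oil females and 6.16, 6.19 and 6.25 in the 3 oil males. The female arrays lay far above the male arrays, a difference of 4.03 (SE 0.124), with an adjusted p of 8.28e-19 by limma. Across treatments, all 11 female arrays read at least 9.83 and none of the 21 male arrays read above 6.51. The promoter printed for Ndufa1 is rich in CpG, with 25 such dinucleotides. Ndufc1, another small accessory subunit, read 11, 10.82 and 11.12 in oil females and 8.04, 8.29 and 8.52 in oil males on 1 of its 2 probes. Its difference was 2.70 (SE 0.124), or 6.49-fold, and the other probe gave 2.35. Ndufs8, a core subunit that holds iron-sulfur clusters, went the other way and was the complex I subunit probe lower in females. It read 10.75, 10.56 and 10.92 in oil females and 11.65, 12.11 and 11.98 in oil males, a difference of -1.17 (SE 0.14, adjusted p 7.41e-08 by limma), and the sexes did not overlap in any treatment. Among assembly factors of this complex, Ndufaf7, an arginine methyltransferase that modifies a core subunit, was higher in females by 2.24, while Ndufaf2 (-0.74) and Ndufaf5 (-0.62) were lower.

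X-linkage was shared by 3 member genes with 5 probes. Besides Ndufa1, the complex IV subunit Cox7b was higher in oil females by 1.17 on 1 probe and 0.96 on the other, and the complex I subunit Ndufb11 by 0.36 and 0.31, with adjusted p of 0.0119 and 0.0279. The Ndufb11 calls lay near the threshold, and both were lost when 1 oil array was left out: the probe at 0.36 then ranged from 0.30 without the first male to 0.45 without the first female, and the probe at 0.31 from 0.25 without the first male to 0.37 without the second. The dosage of the X chromosome was not tested as a cause.

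In complex II, which also serves the citric acid cycle, all 4 subunits had a positive difference and 3 passed the test. Sdhd, a membrane anchor that binds ubiquinone, read 9.85, 9.76 and 9.95 in oil females and 8.66, 8.74 and 8.56 in oil males. The sexes were well separated, by 1.19 (SE 0.0927, 2.29-fold, adjusted p 2.81e-11 by limma). Sdhc, the other membrane anchor, differed by 0.79 and Sdhb, the iron-sulfur subunit, by 0.51 (adjusted p 0.000849). Sdha, the flavoprotein with the active site, differed by 0.22, and missed the threshold with an adjusted p of 0.0548. Without the second oil male the difference of Sdha was 0.31 and passed, and without the third it was 0.15. The assembly factors Sdhaf1 (0.89), Sdhaf2 (0.70) and Sdhaf3 (0.93) were higher in females. The probes of Sdhaf4 disagreed, with 1.56 on one and -0.21, not called, on the other, so no direction is given for that gene.

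Complex III held the highest median of the subunits, and its core subunits moved in opposite directions in oil. Uqcrc2 (core protein 2) read 12.14, 12.02 and 12.06 in oil females and 10.54, 10.86 and 10.57 in oil males. It was higher in females by 1.41 (SE 0.0969, 2.67-fold, adjusted p 2.55e-12 by limma). Uqcrc1 (core protein 1), its partner in the complex, read 11.11, 10.86 and 11.04 in oil females and 11.36, 11.78 and 11.44 in oil males. This was a difference of -0.53 (SE 0.115, adjusted p 0.000339 by limma), with the arrays of the sexes apart in oil. Across treatments they overlapped, since the lowest G1R male reading of Uqcrc1 was 10.95 and the highest female reading 11.24. In the DEHP groups Uqcrc1 differed by 0.018. The hinge protein Uqcrh (1.41) and Uqcrq (1.35), a small subunit next to cytochrome b, were higher in females. The 3 probes of Uqcrb, which binds ubiquinone, gave -0.23 to -0.18 and did not pass. They differed from one another by 0.050, and probes of a gene with near-identical copies can share signal.

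In complex IV, isoforms of the same subunit differed in opposite directions. Cox7a1, the heart and skeletal muscle form of subunit VIIa, read 7.28, 7.6 and 7.76 in oil females and 10.01, 10.38 and 10.34 in oil males. The male arrays were all far above the female arrays, with a difference of -2.70 (SE 0.164, adjusted p 2.64e-13 by limma). Across treatments no female array read above 7.85, and no male array below 9.5. Cox7a2, the form of the same subunit found in most tissues, ran opposite, with 10.62, 10.5 and 10.68 in oil females and 9.0, 9.49 and 9.43 in oil males. It was higher in females by 1.30 (SE 0.139, 2.46-fold, adjusted p 1.11e-08 by limma). Cox7a2l, a related protein that joins complexes III and IV into supercomplexes, was lower in females, by -0.79 and -0.59 on its 2 probes.

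Endothelial markers moved in the same direction as Cox7a1. All 7 endothelial probes were lower in oil females, beside 25.6% of all probes. Their median was -1.59, and Pecam1 read at most 6.67 in females and at least 8.07 in males. Of the interstitial and peritubular markers, 6 of 8 were lower, with a median of -0.68, and the smooth muscle gene Acta2 read 6.55 to 7.26 in females and 8.17 to 10.35 in males. In the first and the second G1R BPA male, Sertoli lists averaged 8.78 and 8.4 and interstitial lists 8.31 and 9.06. Cox7a1 read 10.22 and 10.01 there, inside the range of the other G1R males. Endothelial lists of these arrays averaged 7.83 and 7.96, beside 7.64 to 7.95 in the 18 male arrays of both generations that did not stand apart. The endothelial list differed little there, so nothing is read from these arrays about Cox7a1 and endothelial markers. The part of other cells in the Cox7a1 difference was not tested.

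The other isoform families of complex IV differed less or in part. Ndufa4, now counted as a complex IV subunit, read 9.7, 9.42 and 9.4 in oil females and 7.33, 7.35 and 7.45 in oil males. It was higher by 2.13 (SE 0.142, adjusted p 1.57e-12 by limma), while its hypoxia-induced relative Ndufa4l2 was lower by -0.29 (adjusted p 0.0176 by limma). Cox6b2, the testis form of subunit VIb, was higher in the female germ cells. It read 9.17, 9.33 and 9.42 in oil females and 7.59, 7.2 and 7.36 in oil males, a difference of 1.92 (SE 0.141, adjusted p 9.99e-12 by limma). Cox6b1, the general form, differed by 0.21 and did not pass (adjusted p 0.246), and Cox6a1 (0.10) and the muscle form Cox6a2 (-0.24) did not pass either.

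The lung form Cox4i2 (-0.64, adjusted p 0.000156) and the general form Cox4i1 (-0.37, adjusted p 0.0294) were both lower in oil females by limma. In subunit VIIb the general form Cox7b was higher, and the testis form Cox7b2 was lower by -0.60. Of subunit VIII, the general form Cox8a (-0.59) and the testis form Cox8c (-0.33, adjusted p 0.0419) were lower, and the muscle form Cox8b was higher by 0.33 (adjusted p 0.0345). The calls for Cox4i1, Cox8b, Cox8c and Ndufa4l2 depended on single oil arrays. With each array left out in turn, Cox4i1 ranged from -0.51 without the first female to -0.28 without the second, Cox8b from 0.22 without the first female to 0.49 without the second, Cox8c from -0.44 without the second male to -0.20 without the third, and Ndufa4l2 from -0.35 without the second male to -0.21 without the first female. Cox5a, a subunit on the matrix side, was higher in females by 1.34.

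**Figure D2:**
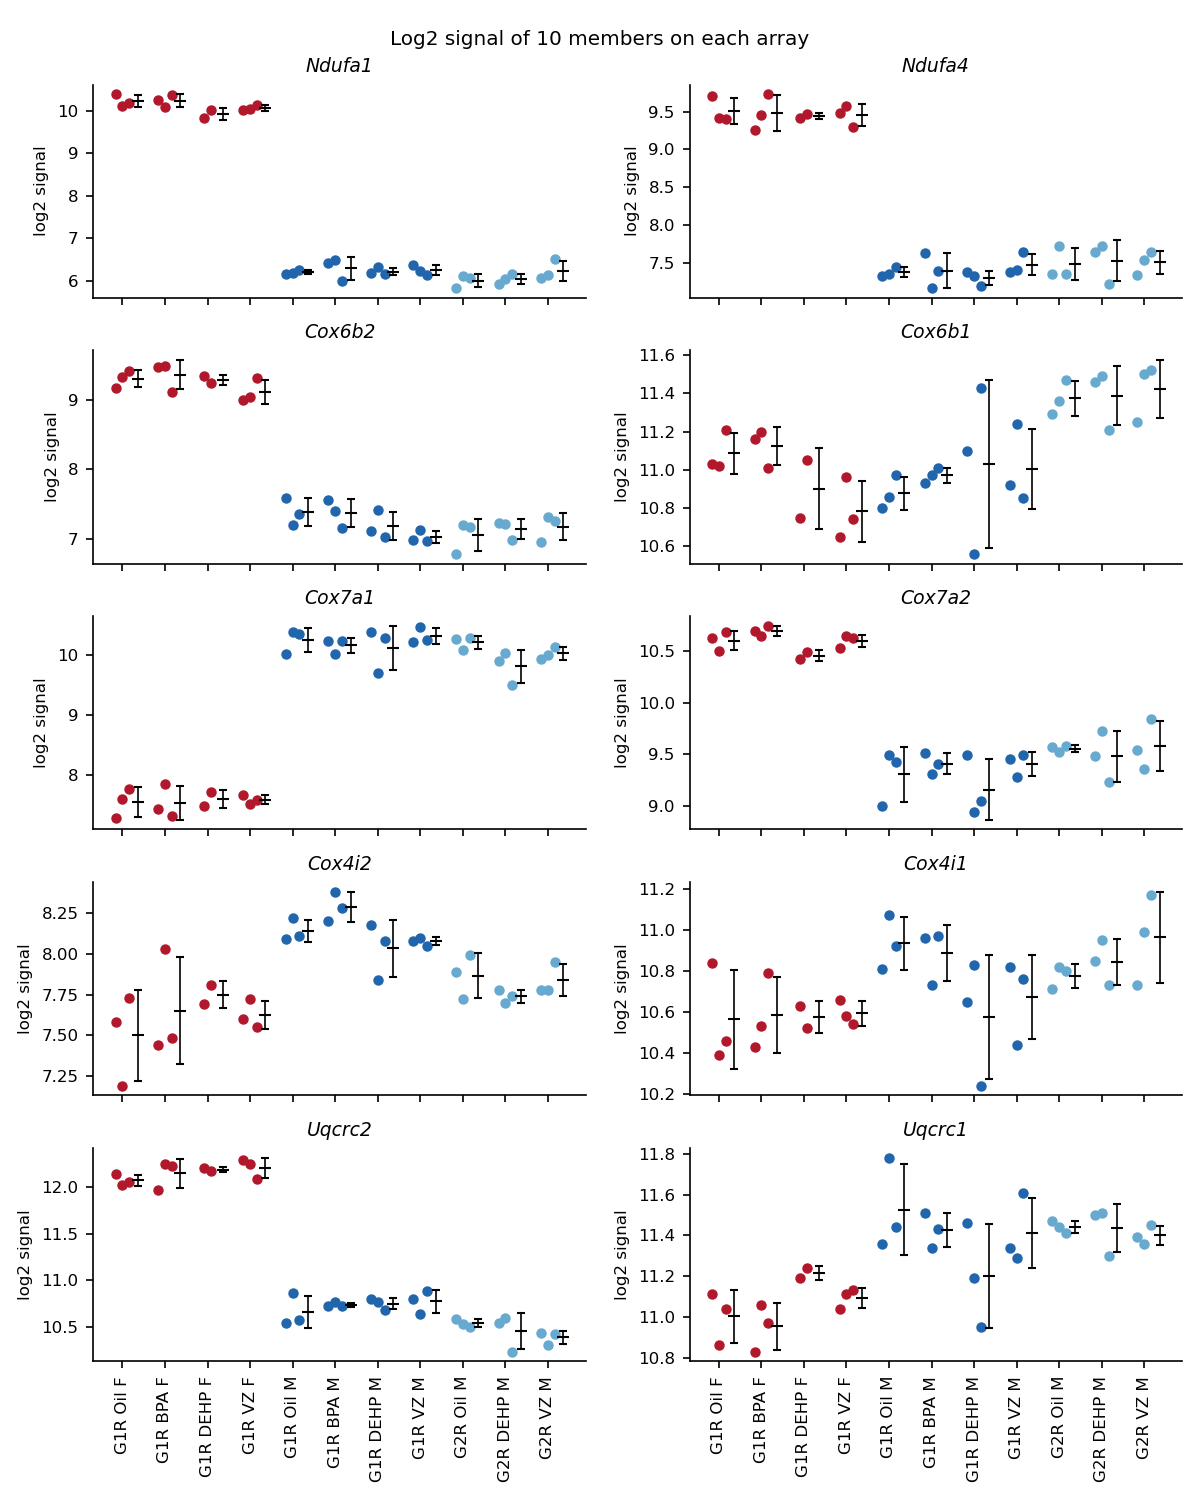
Log2 signal of 10 members in every array (vertical axis) by group (horizontal axis). Points are arrays, red for G1R females, dark blue for G1R males and light blue for G2R males, and black marks are the mean with the SD of the group. Ndufa1, Ndufa4, Cox6b2, Cox7a2 and Uqcrc2 lie higher in every female array than in any male array, Cox7a1 lies lower, and Cox6b1 overlaps.

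In complex V, Atp5pb (subunit b of the stalk that holds the catalytic head in place) had the largest difference. It read 11.83, 11.68 and 11.73 in oil females and 9.05, 9.21 and 9.16 in oil males. The difference was 2.61 (SE 0.0943, 6.1-fold, adjusted p 1.43e-17 by limma), and 1.99 on the other probe. Over all treatments the lowest female reading was 11.62 and the highest male reading 9.47. Atp5md, a small membrane subunit that helps ATP synthase form dimers, was higher by 1.73 on 1 of its 3 probes and by at least 1.62 on the others. Subunit c, which forms the rotating ring, is encoded by 3 genes with identical mature proteins, and these went in different directions. Atp5g1 was lower in oil females, by -0.58 and -0.54 on its 2 probes, Atp5g2 was higher by 0.52 to 0.54 on its 3 probes, and Atp5g3 was higher by 0.32. The 6 probes of Atp5l, subunit g, gave -0.16 to -0.042 and did not pass.

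Where a gene had several probes, these mostly gave the same picture. Of 18 such genes with 44 probes, 16 had differences within 0.35 of each other, and the exceptions were Sdhaf4 and Atp5pb (spread 0.61).

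Assembly factors, most of them outside the symbol rule, had more probes higher than lower in oil females. Of all probes, 28.7% were higher and 25.6% lower in this comparison. Of the assembly factor probes, 11 were higher and 2 lower of 15 for complex I, 4 and 0 of 5 for complex II, 5 and 1 of 7 for complex III, 16 and 1 of 18 for complex IV, and 5 and 0 of 5 for complex V. The lists for complexes I and II hold the Ndufaf and Sdhaf members given above. Sco1 (1.53), which delivers copper, and Cox18 (1.33), which inserts a mitochondrially made subunit, were among those of complex IV. Cytochrome c and the complex III subunit Cyc1 had 1 higher and 0 lower of 5 probes, and 4 probes for mitochondrially encoded COX2 and ND3 gave -0.065 to -0.053 with no call. Their means in the oil groups were 12.57 to 13.78, near the highest signal of 14.82. Whether differences can be read at that level was not tested, and other mitochondrially encoded genes are not covered.

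Around the respiratory chain, fuel pathways went in different directions. The counts that follow stand beside 28.7% of all probes higher and 25.6% lower in oil females. Pyruvate dehydrogenase and the citric acid cycle had 11 higher and 3 lower of 18 probes, with Suclg2 (2.87 and 2.68), a succinyl-CoA ligase subunit, and Idh3a (2.14), an isocitrate dehydrogenase subunit, among the higher. Glycolysis had 7 higher and 17 lower of 25 probes, with a median of -0.71. Among the lower were the glucose transporter Slc2a3 (-3.41) and phosphoglycerate mutase Pgam1 (-2.14 to -2.07 over its probes). The 7 higher were the probes of Pgk1 (1.39 to 1.45), Ldhb (1.92 and 1.52), Pdk1 (1.63) and Pdk3 (0.64). Several probes to 1 gene, as for Pgam1 and Pgk1, are not independent of each other. Mitochondrial biogenesis genes had 14 higher and 4 lower of 22. Among the higher were the mitochondrial DNA-binding protein Ssbp1 (1.70) and Gabpb1 (1.61), a subunit of NRF2. Gabpa, the other NRF2 gene of this list, differed by 0.034 and was not called, and both probes of Ppargc1a were lower (-0.86 and -0.49). Mitochondrial ribosomal proteins had 48 higher and 12 lower of 85, with a median of 0.45. Of the marker lists, germ cell markers had 4 higher and 2 lower of 11, Sertoli 2 and 4 of 10, fetal Leydig 0 and 4 of 7, granulosa 0 and 6 of 9, blood 0 and 3 of 5, and Y-linked genes 0 and 6 of 7. Both germ cell counts, and the higher count of the Sertoli list, lay near the shares of all probes, so no direction is read from them. The part of the cells named by these lists in the members' differences was not tested.

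The sex comparison was repeated within each ED. In the BPA groups 71 members (59.7%) were higher in females, against 30.6% of all probes, and 14 (11.8%) were lower, against 25.1%. Without the 2 BPA males that stood apart, 1 BPA male array was left, so no counts of this sex comparison are given for that fit. In the DEHP groups 71 were higher, against 28.5%, and 12 (10.1%) lower, against 23.6%. In the VZ groups 70 (58.8%) were higher, against 31%, and 19 (16%) lower, against 24.5%. Median member differences were 0.51, 0.55 and 0.47 in BPA, DEHP and VZ, beside 0.082, 0.092 and 0.11 for all probes. Ndufa1 differed by 3.94, 3.71 and 3.82 in these groups, and Cox7a1 by -2.62, -2.51 and -2.72. Without the BPA males that stood apart, the BPA differences were 4.25 for Ndufa1 and -2.68 for Cox7a1.

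Across all 4 treatments, 67 members (56.3%) were higher in females each time, against 20.6% of all probes, and 10 (8.4%) were lower each time, against 19.5%. The 10 lower probes were for Atp5g1, Cox7a1, Cox7a2l, Cox7b2, Cox8a, Ndufaf2, Ndufaf5 and Ndufs8. Of all members, 103 kept the sign of the difference in all 4 treatments (82 positive and 21 negative), and 0 passed the test in opposite directions.

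As a description of each array, the log2 values of the members were centred on each probe's mean over all arrays and averaged. This level lay between 0.27 and 0.48 in female arrays, between -0.36 and -0.15 in G1R male arrays and between -0.33 and -0.068 in G2R male arrays, so that the sexes did not overlap. The complex IV isoforms overlapped, at -0.27 to 0.02 in females, 0.0036 to 0.26 in G1R males and -0.047 to 0.16 in G2R males. Complex IV subunits, by contrast, lay at 0.17 to 0.42 in females, at -0.43 to -0.12 in G1R males and at -0.25 to 0.056 in G2R males.

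**Figure D3:**
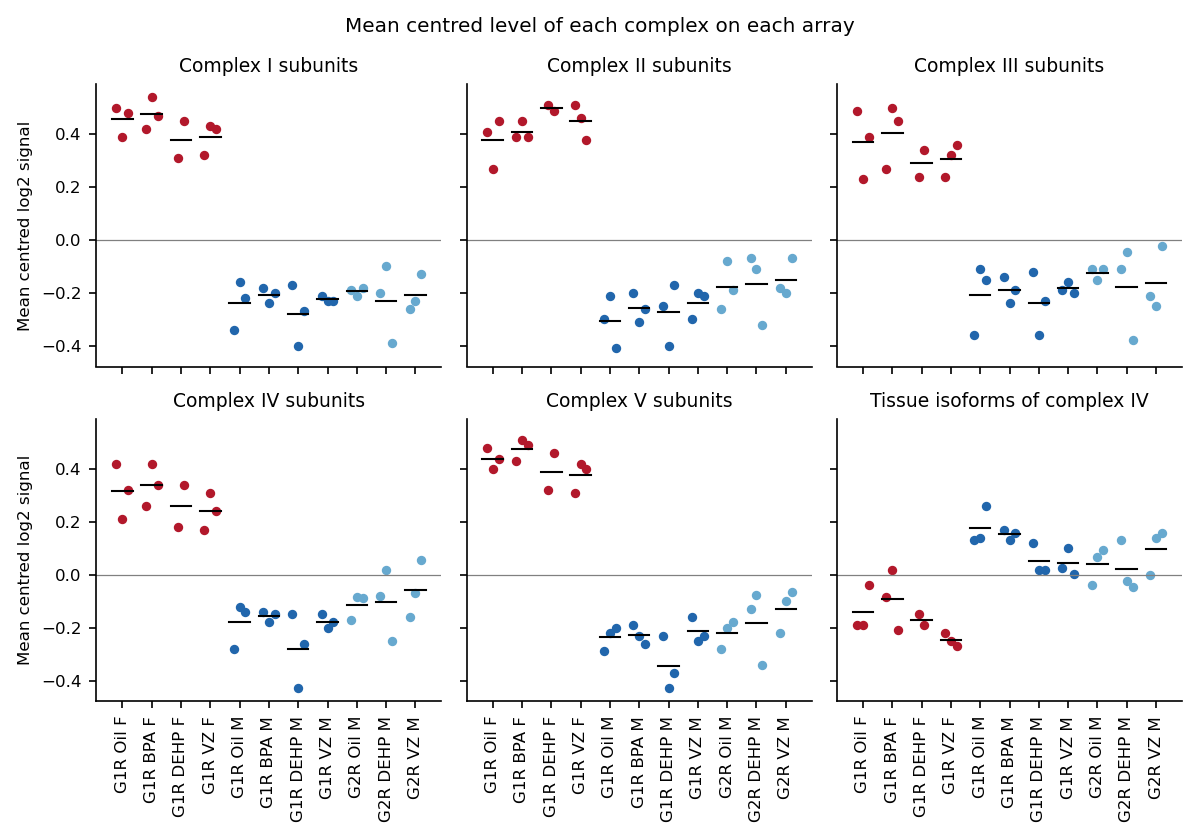
Mean centred log2 level of the subunits of each complex and of the complex IV isoforms (vertical axis) in every array, by group (horizontal axis). Points are arrays, with red for G1R females, dark blue for G1R males and light blue for G2R males, and lines are group means. Female arrays lie above male arrays for complex IV subunits, and the isoforms overlap between the sexes.

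None of the 3 EDs gave a change of a member that passed the test. In each of the 8 comparisons of an ED with the Oil group of the same sex and generation, limma called 0 members at an adjusted p under 0.05. Of all probes 0% were called in each of them, except 0.00562% in DEHP males and in VZ males of G1R. A fit by least squares without moderation also called 0 members in all 8, and a fit with array quality weights called 1, Ndufa4l2 in VZ males of G1R, and 0 in the others. At an unadjusted p under 0.05 there was 1 member in BPA females (all probes 4.56%), 5 in DEHP females (6.28%), 9 in VZ females (5.96%), 4 in BPA males (6.96%), 19 in DEHP males (16%, all probes 14.4%) and 11 in VZ males (9.24%, all probes 18.3%) of G1R. In G2R males there were 7 for DEHP (all probes 6.91%) and 14 for VZ (11.8%, all probes 5.41%). These were probes of 6 genes for DEHP and 8 genes for VZ, and several probes to 1 gene are not independent of each other. Comparisons within a sex and generation share their Oil arrays.

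Median member differences from oil lay between -0.057 in VZ females and 0.030 in BPA females. The smallest adjusted p of a named member was 0.105, for Sdhaf1 in DEHP males. This factor, which helps mature the iron-sulfur subunit of complex II, read 7.16, 7.39 and 7.38 in G1R oil males and 7.8, 7.78 and 7.52 in DEHP males, a difference of 0.39 (SE 0.102) that missed the test although the arrays did not overlap. In BPA males Sdhaf1 differed by 0.35 (adjusted p 0.345 by limma), and by 0.22 without the 2 arrays that stood apart. Cox6a1 read 11.16, 11.23 and 11.13 in oil males and 10.87, 10.93 and 10.39 in DEHP males, a difference of -0.44 (adjusted p 0.126 by limma). Others that missed the test were Atp5mpl (-0.40) and Ndufs7 (0.31) in DEHP males, and Ndufa4l2 (-0.31), Cox6b2 (-0.36), Ndufc1 (0.32) and Atp5md (0.36) in VZ males.

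Differences in females were of the same size. Atp5a1, the alpha subunit of the catalytic head of ATP synthase, differed by 0.34 in DEHP females and 0.29 in VZ females, with adjusted p of 0.743 and 0.769 by limma. Ndufaf6 differed by 0.23 in BPA females and 0.20 in VZ females, Cox7a2l by -0.31 in DEHP and -0.30 in VZ females, Atp5b by 0.21 and Ndufa1 by -0.30 in DEHP females, and Atp5k by -0.28 in VZ females, none past the test. BPA males and females gave Ndufc1 0.33, Uqcrfs1 -0.18 and Cox8c -0.25 in males, and Cox7b2 0.19, Cox8b -0.17 and Ndufa11 -0.19 in females. Without the 2 BPA males that stood apart, Ndufc1 stood at 0.22, Uqcrfs1 at -0.10 and Cox8c at -0.17, and 0 members had an unadjusted p under 0.05 in BPA males (all probes 2.35%), 1 BPA male array being left.

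DEHP and VZ were the EDs measured in G2R. Uqcrb differed by -0.35 and -0.31 on its 2 probes of smallest p in DEHP males, and by -0.36 and -0.31 in VZ males. Atp5mpl, a small subunit of ATP synthase, differed by 0.22 in DEHP and 0.39 in VZ males, Ndufc2 by 0.21 in DEHP males and Atp5l by 0.38 in VZ males. All missed the test, with adjusted p of 0.662 to 0.737 in DEHP and 0.913 in VZ by limma. Without the second G2R DEHP male the DEHP values were -0.39 and -0.34 for Uqcrb, 0.25 for Atp5mpl and 0.18 for Ndufc2, also not called, and 10 members in place of 7 had an unadjusted p under 0.05 (all probes 12.6%).

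**Figure D4:**
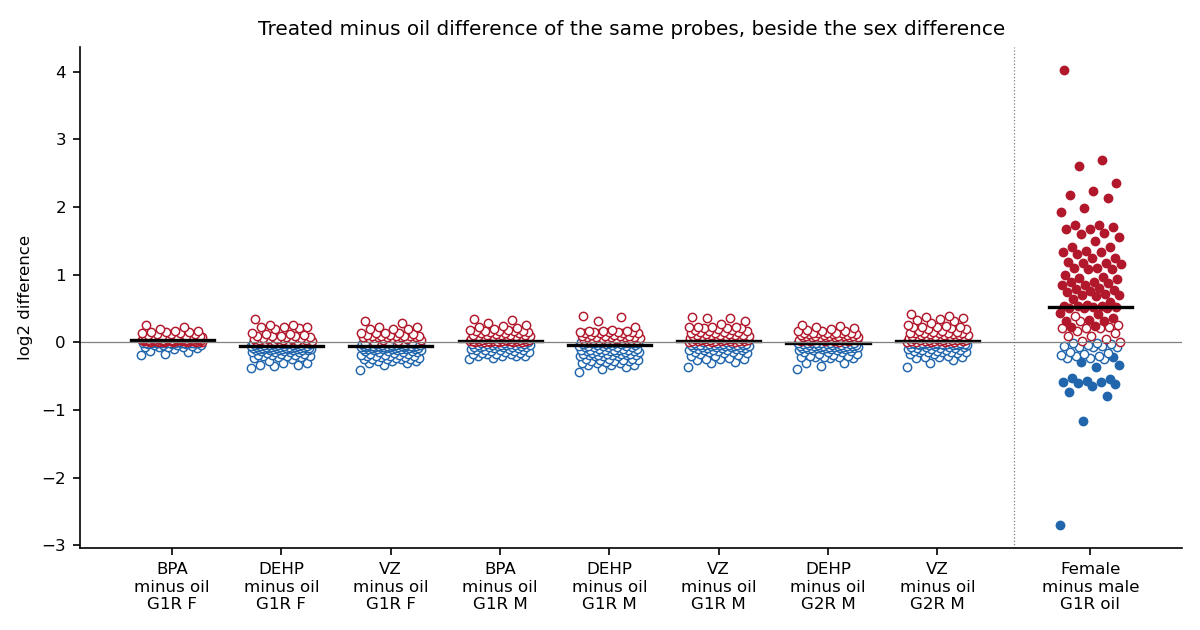
Log2 difference of each member probe (vertical axis) in the 8 comparisons of an ED with oil, beside the female minus male difference in oil. Red points are above 0 and blue points below, filled points passed the test at an adjusted p under 0.05, hollow points did not, and black lines are medians. All points of the 8 comparisons are hollow and lie within -0.44 and 0.42, while the sex difference reaches from -2.70 to 4.03.

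The difference of an ED effect between sexes or between generations was tested with 5 interaction terms. Each called 0 members and 0% of all probes by limma, and 0 members by least squares without moderation. At an unadjusted p under 0.05 there were 2 members for sex by BPA (all probes 4.84%), 5 for sex by DEHP (7.47%) and 5 for sex by VZ (6.21%). For generation by DEHP there were 17 (13.3%) and for generation by VZ 19 (16.2%).

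Male germ cells of the 2 generations were compared within each treatment. G2R arrays were run apart from G1R arrays and come from the reciprocal cross, so generation, cross and array run cannot be told apart. Few members differed in oil: 5 (4.2%) were higher in G2R, against 5% of all probes, and 4 (3.36%) were lower, against 5.3%. In DEHP 17 (14.3%) were higher, against 6.91%, and 7 (5.88%) lower, against 7.56%. In VZ 16 (13.4%) were higher, against 2.98%, and 10 (8.4%) lower, against 4.78%. Median member differences were 0.043, 0.067 and 0.041 in the 3 treatments, beside -0.032, -0.00042 and -0.0046 for all probes.

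These counts rested on few arrays, and the share of all probes called was not counted for fits with arrays left out. In oil, 0 members were called in either direction without the third G1R male, and the counts ranged up to 5 higher and 3 lower with other arrays left out. In DEHP, the higher count ranged from 9 without the second G1R male to 21 without the third, and the lower count from 2 without the first G1R male to 16 without the second G2R male, which is among the arrays that stood apart. In VZ, the higher count ranged from 8 without the third G2R male to 16 without the first, and the lower count from 2 without the first G1R male to 7 without the third G2R male. With all 3 arrays that stood apart left out, 11 members were higher and 13 lower in DEHP. At an unadjusted p under 0.05 by limma there were then 44 members in place of 51, beside 27.5% of all probes. The change in the 2 directions is not shown to be particular to the members.

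Ndufb2, an accessory subunit of complex I, was higher in G2R in all 3 treatments. In oil it read 7.08, 7.23 and 7.15 in G1R males and 7.9, 7.49 and 7.88 in G2R males. This was a difference of 0.61 (SE 0.181, adjusted p 0.0339 by limma). Its readings in G1R oil males lay below the lowest array median, so they are not shown to be above background. The G2R arrays of Ndufb2 were all above the G1R arrays of the same treatment, and the difference was 0.88 in DEHP and 1.01 in VZ. Ndufa3, another accessory subunit, was lower in G2R in all 3, by -0.42 (adjusted p 0.0173), -0.40 and -0.37 by limma.

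Other members called in oil were Sdhb, which read 9.83, 9.85 and 9.66 in G1R males and 10.4, 10.27 and 10.18 in G2R males, with a difference of 0.51 (adjusted p 0.0107 by limma). It was followed by Cox6b1 (0.49, adjusted p 0.0357) and, lower in G2R, by Cox6a1 (-0.44, adjusted p 0.028) and Ndufa4l2 (-0.44, adjusted p 0.00907). Each of Ndufb2, Ndufa3, Sdhb, Cox6b1, Cox6a1 and Ndufa4l2 lost its oil call when some single array was left out, with the differences then ranging from 0.54 to 0.74 for Ndufb2, -0.52 to -0.34 for Ndufa3, 0.45 to 0.56 for Sdhb, 0.44 to 0.54 for Cox6b1, -0.49 to -0.35 for Cox6a1 and -0.50 to -0.36 for Ndufa4l2. For Cox6b1 the call was lost with any of the 6 arrays left out.

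In the ED groups, all 6 Atp5l probes were higher in G2R, by 0.49 to 0.62 in DEHP and 0.50 to 0.64 in VZ. Several probes to 1 gene are not independent of each other, so Atp5l weighs on both counts. Atp5mpl was higher by 0.77 in DEHP and 0.69 in VZ, and Cox7a2l by 0.62 and 0.64 on its probes in DEHP and 0.71 and 0.57 in VZ. Among the members lower in G2R, Sdhaf1 stood at -0.66 in DEHP, and the 3 Uqcrb probes at -0.54, -0.45 and -0.40 in VZ. Atp5mpl read 9.64, 9.55 and 9.54 in G1R DEHP males and 10.52, 10.29 and 10.24 in G2R DEHP males, with no overlap. Without the second G2R DEHP male, the DEHP differences were 0.80 for Atp5mpl, 0.60 and 0.61 for Cox7a2l, -0.73 for Sdhaf1, 0.71 for Ndufb2, -0.48 for Ndufa3 and 0.47 to 0.59 for Atp5l, and 2 Atp5l probes no longer passed (adjusted p 0.052 and 0.0595 by limma).

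**Figure D5:**
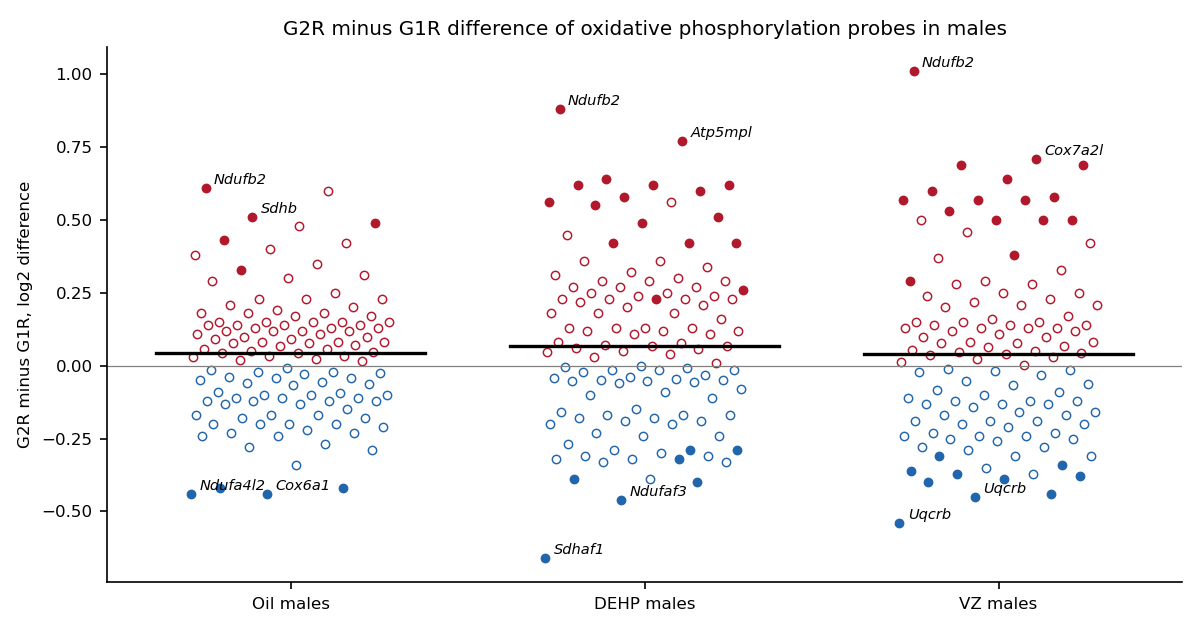
G2R minus G1R log2 difference of each member probe in males (vertical axis) for Oil, DEHP and VZ (horizontal axis). Red points are above 0 and blue points below, filled points passed the test at an adjusted p under 0.05, hollow points did not, and black lines are medians. Medians lie at 0.043, 0.067 and 0.041, and Ndufb2 is the highest point in each.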

How the data were processed

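RNA was hybridized to Affymetrix Mouse Gene ST arrays. Per the labels, the authors made log2 signals by robust multi-array averaging (RMA) in Partek and deposited them as a single table; versions are not given in the sources used here. No other scanner values were used. Probes were named through the platform annotation, and all 119 member probes matched RefSeq by gene ID. From the deposited log2 values, limma 3.58.1 in R 4.3.3 was fitted to all 32 arrays with a mean for each of the 11 groups (21 residual degrees of freedom, 3.67 prior), and contrasts were adjusted by Benjamini-Hochberg over 35556 probes, with calls at 0.05. The number of arrays limits the precision. No 2 arrays were identical. The script was tested on simulated data. Figures were drawn with matplotlib 3.10.9.

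Members named were, per complex, up to 3 with the largest called sex difference in each direction in oil without overlap, all members of families with isoforms, all complex II subunits, and those of smallest p against oil. Other genes in the text were chosen after their values were seen. The members and the 19 gene lists were chosen with earlier results of these data known. Alternatives were array quality weights, unmoderated least squares, loess or median centring, a fold minimum of 1.5, only the arrays compared, brighter or single-gene probes, subunits only, a replicate block, each array left out, and, chosen after seeing the data, 3 male arrays left out. Same-numbered arrays were not treated as pairs.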

Additional observations from a re-analysis of the deposited data

How the results depend on the processing

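No called difference of a named member changed direction under any alternative. The member medians of the 4 sex comparisons kept their sign under all alternatives, but those of 7 of the 8 comparisons of an ED with oil and of 2 of the 3 generation comparisons, all near 0, changed sign under at least 1, to values from -0.033 to 0.062 and from -0.031 to -0.0028. In the DEHP generations the balance of calls turned from 17 higher and 7 lower to 11 and 13 without the 3 male arrays. The share of all probes called was not counted there, so this turn is not shown to be particular to the members. Of the named members' results under alternatives that leave out no single array, 752 kept their side of the threshold. Of the rest, 41 lost the call and 11 gained it. Calls on differences below the fold minimum are among those lost. In oil these include the sex differences of Uqcrc1 (-0.53), Sdhb (0.51), Atp5g1 (-0.58 and -0.54), Atp5g2 (0.52 to 0.54) and Atp5g3 (0.32). With a single array left out, the sex differences that lost a call were those of Cox4i1, Cox8b, Cox8c, Ndufa4l2 and Ndufb11. The members named for G2R minus G1R in oil also lost calls in this way. The cause was not tested.

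Median centring moved the all-probe female minus male median in oil from 0.049 to 0.20 and cyclic loess to -0.0044. The member medians were 0.67 (oil), 0.67 (BPA), 0.72 (DEHP) and 0.62 (VZ) under centring, and 0.36, 0.43, 0.36 and 0.37 under loess. In VZ the median was 0.52 with array quality weights and 0.55 over subunits only. Members lower in females numbered 9 (oil), 6 (BPA) and 10 (VZ) with a fold minimum of 1.5, and 12 in VZ under centring. For VZ against oil in G1R males, array quality weights gave 1 call.

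For G2R minus G1R in oil, the higher count was 10 with array quality weights, 1 with the fold minimum, 2 under loess, 8 under centring and 1 with only the arrays compared, and the lower count 0, 2 and 0 with the fold minimum, centring and only the arrays compared. In DEHP the higher count was 7 with the fold minimum, 2 with only the arrays compared and 11 without the 3 male arrays that stood apart, and the lower count 1, 1 and 13. In VZ the higher count was 6 with the fold minimum and 4 with only the arrays compared, and the lower count 0, 5 and 1 with the fold minimum, centring and only the arrays compared. With each array left out in turn, the counts were 0 to 5 higher and 0 to 3 lower in oil. They were 9 to 21 and 2 to 16 in DEHP, and 8 to 16 and 2 to 7 in VZ. The share of all probes called was not counted beside the member counts under these alternatives. The median member difference was -0.031 to 0.047 for the generations in oil and 0.46 to 0.59 for the sexes in DEHP.

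Replicate numbers did not pair the samples: over 11 same-numbered male and female arrays of a treatment, the correlation of their deviations was -0.166 to 0.11 (median -0.0585). With the replicate block, 71 members were higher and 15 lower in oil females, 71 and 14 in BPA, 71 and 12 in DEHP and 69 and 19 in VZ.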
